A study of Mus musculus with 2 samples.

Results

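Hif1a and 9 genes of glucose metabolism were examined in polysome-associated RNA of mouse macrophages. The 10 genes are Hif1a, the hexokinase genes Hk1 and Hk2, the phosphofructokinase genes Pfkl and Pfkp, the regulator gene Pfkfb3, Pgk1, Eno1, Ldha and Pdk1. They were taken by gene symbol from the authors' deposited table, which held 22088 genes with a single symbol, and where several probe sets carried the symbol the one with the highest mean signal was used. All 10 were on the array. Bone marrow cells of C57BL/6J mice were differentiated to macrophages over 7 days in medium with L929 cell supernatant and then exposed over 12 h to poly(I:C), a mimic of viral double-stranded RNA, at 10 µg/ml. The groups were Oasl1-/- macrophages, which lack the interferon-induced protein OASL1, and wild-type (WT) macrophages, with the same strain, exposure and time. RNA was taken from gradient fractions 9 to 11 of 16, and each genotype had 1 array. No untreated cells and no total RNA were analysed here. The number of mice behind each culture and the deleted part of Oasl1 are not given in the sources used here.

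Glycolysis splits glucose into pyruvate in the cytosol. Macrophages activated through pattern receptors are known to run it at a high rate and to turn much of the pyruvate into lactate. HIF-1α, the product of Hif1a, pairs with ARNT to form HIF-1, a transcription factor of the hypoxia response that switches on glucose uptake, most glycolytic enzymes, lactate formation and Pdk1. Its protein is destroyed in the presence of oxygen after prolyl hydroxylases, encoded by the Egln genes, mark it for the VHL ubiquitin ligase. Inflammatory signals also raise HIF-1α in macrophages, through transcription of Hif1a among other routes.

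All values below are RMA signals on the log2 scale, and a difference is the Oasl1-/- signal minus the WT signal. With 1 array per genotype no difference has a replicate check and none was tested, so sizes are given with their place among the 7835 genes whose higher signal was at least 7. That floor lay near the top of the middle 95% of signals of 5222 intron control probe sets, a measure of background, which was 7.34 in the Oasl1-/- and 7.13 in the WT array. The median gene past the floor differed by -0.09, and 60.6% of the genes were lower in the Oasl1-/- array by some amount. A difference close to -0.09 is thus that of the median gene of all, but the median varied with signal. It was -0.127 at a mean signal of 7 to 8, -0.046 at 9 to 10 and -0.036 at 10 to 11. At 11 to 12 it was 0.005 and at 12 to 14 it was -0.022. A member at -0.09 is therefore lower than the median of genes as bright. As a check of the labels, Oasl1 had signals of 9.14 in the Oasl1-/- array and 10.70 in the WT array, the 4th lowest difference of all, and Irf7, which OASL1 is known to restrain, had 11.47 and 10.14. Of 10 macrophage markers on the array 9 passed the floor, among them Csf1r at 12.50 and 12.42 and Cd68 at 12.78 and 12.70 in Oasl1-/- and WT. These markers were not all level: 8 were higher and 1, Mrc1 at -0.39, was lower by some amount. Mertk at 0.59 was past 1.5-fold, followed by Cd14 at 0.48 and Fcgr1 at 0.45, and their part in the results below was not tested. None of the 32 markers of T cells, B cells, neutrophils, red cell precursors, stromal cells and dendritic cells passed it, the brightest being Col1a1 at 6.94 and 6.56.

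Pdk1 was the member that stood apart, and the glycolytic enzymes differed by small amounts, mostly on the lower side. Pdk1 was 1.71-fold lower in the Oasl1-/- array, while the other 9 genes lay between -0.32 and 0.20. Hif1a itself was almost level at 0.07. In all, 7 of the 10 genes were lower and 3 higher by some amount, with a median of -0.10, next to the median of -0.09 over all genes. A threshold of 1.5-fold was passed by 1 of the 10 in the lower direction, where 6.28% of all genes passed it, and by 0 in the higher direction, where 5.27% did. No member reached 2-fold, a size that 0.651% of all genes reached in the lower and 1.57% in the higher direction. After centring on the median gene the 10 were split evenly, 5 lower and 5 higher. After removal of a loess trend, quantile normalization or a pseudocount of 32 they stayed 7 lower and 3 higher. Their median was -0.108 after loess, beside -0.005 over all genes, and -0.061 after quantile normalization, beside -0.014 over all genes.

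**Figure D1:**
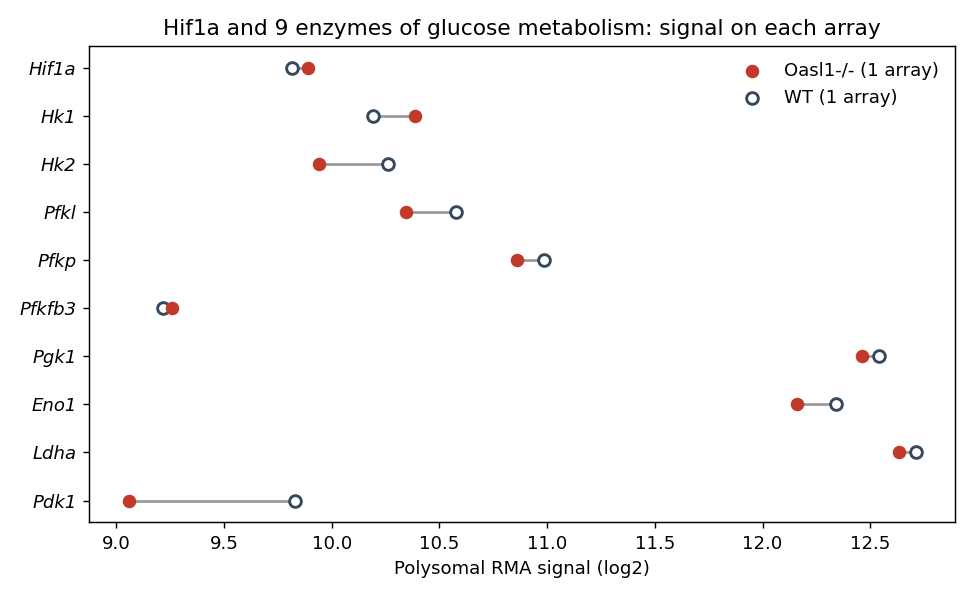
Polysomal RMA signal (x axis, log2) of Hif1a and the 9 enzyme genes in the Oasl1-/- array (filled circles) and the WT array (open circles), with a line joining the 2 arrays of a gene and no replicates. The line is longest for Pdk1, at 9.06 in Oasl1-/- and 9.83 in WT, and the marks nearly touch for Hif1a, Pfkfb3, Pgk1 and Ldha.

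Hif1a had a signal of 9.89 in the Oasl1-/- array and 9.82 in the WT array. The difference of 0.07 was above that of 68.3% of all genes past the floor, whose distribution is centred slightly below 0. Under 4 rescalings (centring on the median gene, removal of a loess trend, quantile normalization and a pseudocount of 32) it ran from 0.07 to 0.16. Its 35 probes lie on the plus strand at chr12:75008891-75048541 (build NCBIM37, as for all probe sets below), and no other probe set carried the symbol. The array reports mRNA in polysomes, not HIF-1α protein, whose level also depends on its destruction.

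The hexokinases, which trap glucose in the cell by phosphorylation, differed in opposite directions. Hk1, the widely expressed form, had signals of 10.39 in Oasl1-/- and 10.19 in WT, a difference of 0.20 that was the highest of the 10. Hk2, the form induced by insulin, HIF-1 and inflammatory stimuli, had 9.94 in Oasl1-/- and 10.26 in WT. At -0.32 (1.25-fold lower) it was the next lowest member after Pdk1, with 22.2% of all genes further down. Hk3, the form typical of myeloid cells and not a member, had 11.76 in Oasl1-/- and 11.49 in WT, a difference of 0.27. Hk2 was thus lower while the other two were higher, each by less than 1.5-fold. The Hk1 probes lie at chr10:61731852-61842631 and those of Hk2 at chr6:82675019-82724453, both on the minus strand.

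Phosphofructokinase commits sugar to glycolysis, and its subunit genes lay within 1.5-fold. Pfkl, the liver-type subunit, had 10.34 in the Oasl1-/- and 10.57 in the WT array, a difference of -0.23. Pfkp, the platelet-type subunit, had 10.86 in Oasl1-/- and 10.98 in WT, which at -0.12 was close to the median gene. The muscle-type subunit gene Pfkm differed by -0.09, with 7.34 in Oasl1-/- and 7.43 in WT. Pfkfb3 makes fructose-2,6-bisphosphate, the strongest activator of phosphofructokinase, and is known as the inducible isoform in activated macrophages. It was level, with 9.26 in Oasl1-/- and 9.22 in WT, a difference of 0.04. Of its relatives past the floor Pfkfb4 differed by -0.13 and Pfkfb2 by -0.43, with Pfkfb2 at 7.29 in Oasl1-/- and 7.72 in WT. The enzyme that removes the same activator, encoded by 9630033F20Rik (now Tigar), differed by -0.30. Probes of Pfkl lie at chr10:77450016-77472494, of Pfkp at chr13:6579120-6647976 and of Pfkfb3 at chr2:11393062-11423694, all on the minus strand.

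Pgk1, Eno1 and Ldha, the members of the later steps, had signals above 12 on both arrays and differed little. Pgk1, which makes ATP from 1,3-bisphosphoglycerate, had 12.46 in Oasl1-/- and 12.54 in WT, a difference of -0.08. Eno1, the enolase that forms phosphoenolpyruvate, had 12.16 in Oasl1-/- and 12.34 in WT, a difference of -0.18. Ldha, which reduces pyruvate to lactate and so restores NAD for glycolysis, had 12.63 in Oasl1-/- and 12.71 in WT, again -0.08. Pgk1 and Ldha sat at the middle of the distribution of all genes, with 51.3% and 51.2% of all genes below them. After centring both were at 0.01, but after removal of a loess trend they were at -0.095 and -0.097. Genes with a mean signal of 12 to 14 had a median of -0.022. Bright genes varied less between the arrays. The SD of the difference was 0.24 over the 172 genes with a mean signal of at least 12, against 0.39 over all genes past the floor, and 2.91% of them were past 1.5-fold in either direction. Whether signals near the top of the range, 13.80 on both arrays, were compressed was not tested.

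Pgk1 and Eno1 each had 3 probe sets, because the annotation gives their symbols to copies elsewhere in the genome as well. For each gene the brightest signal belonged to a pair of such copies with identical values on both arrays, and the probe set at the parent gene was nearly the same. At the parent locus of Pgk1, chrX:103382463-103399038 on the plus strand, the signals were 12.45 in Oasl1-/- and 12.53 in WT, a difference of -0.08. At that of Eno1, chr4:149611364-149622984 on the plus strand, they were 12.14 in Oasl1-/- and 12.33 in WT, a difference of -0.19 from 10 probes. Copies of near-identical sequence may share probes and cannot be told apart here, so the signals of both genes include whatever the copies contribute. Ldha had a single probe set of 21 probes at chr7:54101211-54110997 on the plus strand.

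Pdk1 encodes pyruvate dehydrogenase kinase 1, which shuts off the pyruvate dehydrogenase complex and so limits the oxidation of pyruvate in mitochondria. Its signal was 9.06 in the Oasl1-/- array and 9.83 in the WT array. The difference of -0.77 left 58.6% of the WT signal and was the 177th lowest of the 7835 genes, with 2.25% of genes further down. Both signals were well above the floor. The difference stayed past 1.5-fold under all 4 rescalings, none of which brought it above -0.68. In the range of mean signal from 9 to 10, which holds Pdk1, 70 of 1555 genes were lower by at least 1.5-fold. The 25 probes lie on the plus strand at chr2:71711281-71740731.

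**Figure D2:**
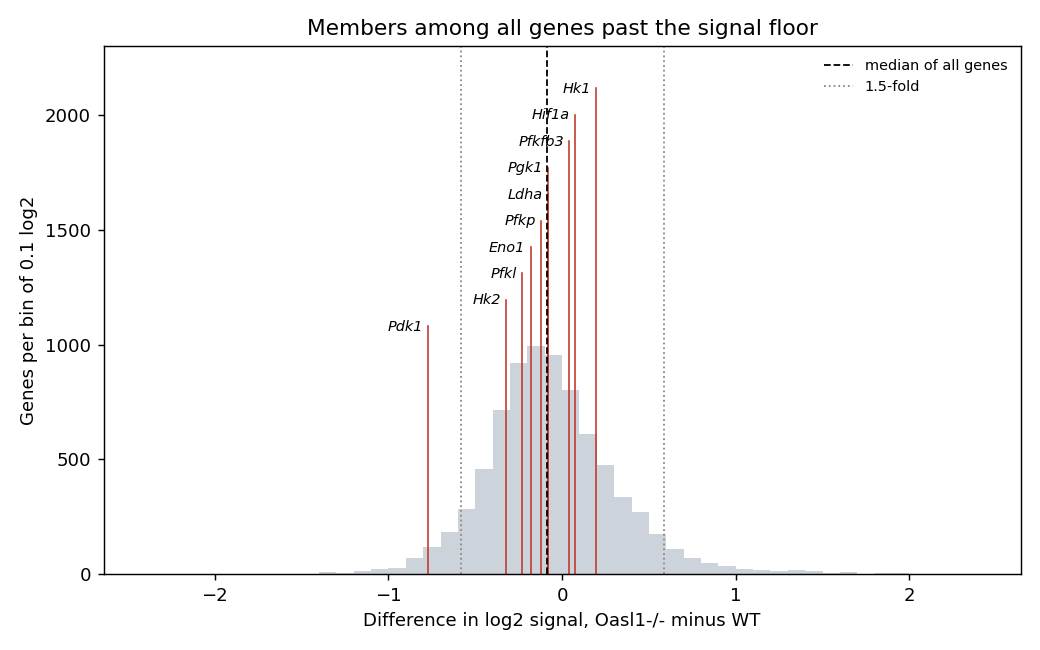
Distribution of the difference in log2 signal, Oasl1-/- minus WT, over the 7835 genes past the floor (grey, genes per bin of 0.1), with each of the 10 genes as a vertical line whose height only separates the labels. Pdk1 at -0.77 lies beyond the dotted 1.5-fold line, and the other 9 lie between -0.32 and 0.20 around the dashed median of all genes, -0.09.

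Other genes of the pyruvate dehydrogenase step lay within 1.5-fold. Of 8 past the floor 0 passed it, beside 6.28% of all genes in the lower and 5.27% in the higher direction. Their median was -0.12. Pdk3, a further kinase of the complex, was on the higher side, with 9.11 in Oasl1-/- and 8.78 in WT, a difference of 0.32. Pdk2 and Pdk4 were below the floor on both arrays. The subunit genes of the complex, Pdha1 at -0.11, Pdhb at -0.12, Dlat at -0.07 and Dld at -0.13, were close to the median gene, and Pdhx was lower at -0.27, with 7.19 in Oasl1-/- and 7.45 in WT. Of the phosphatases that reverse the kinases, Pdp1 differed by 0.14 and Pdp2 by -0.35, with Pdp2 below the floor in the Oasl1-/- array at 6.78.

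Promoters of 4 members are shown because HIF-1 is known to act on all 4 genes, of which Pdk1 and Hk2 had the lowest differences and Ldha and Pgk1 were level. The core of its binding site is ACGTG or GCGTG. Both strings were searched on both strands of the RefSeq promoter windows (GRCm38.p6), which run from 250 bases before to 50 bases after a gene's start. Overlapping matches on opposite strands were counted separately. Capitals mark the matches, in windows of Pdk1 at chr2:71872974-71873273 (plus strand), Hk2 at chr6:82774405-82774704 (minus strand), Pgk1 at chrX:106186850-106187149 (plus strand) and Ldha at chr7:46845554-46845853 (plus strand).
Pdk1: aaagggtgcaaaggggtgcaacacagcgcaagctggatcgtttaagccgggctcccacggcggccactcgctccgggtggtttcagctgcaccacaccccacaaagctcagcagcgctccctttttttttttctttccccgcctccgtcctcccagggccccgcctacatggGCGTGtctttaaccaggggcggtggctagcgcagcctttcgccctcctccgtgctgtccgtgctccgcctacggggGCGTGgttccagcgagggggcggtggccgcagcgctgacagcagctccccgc
Hk2: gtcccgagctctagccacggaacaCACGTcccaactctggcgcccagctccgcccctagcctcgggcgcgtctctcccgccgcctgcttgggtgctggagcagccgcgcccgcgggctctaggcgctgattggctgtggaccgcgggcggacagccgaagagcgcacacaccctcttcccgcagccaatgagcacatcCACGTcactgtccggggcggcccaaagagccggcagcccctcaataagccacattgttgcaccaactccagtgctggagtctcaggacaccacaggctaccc
Pgk1: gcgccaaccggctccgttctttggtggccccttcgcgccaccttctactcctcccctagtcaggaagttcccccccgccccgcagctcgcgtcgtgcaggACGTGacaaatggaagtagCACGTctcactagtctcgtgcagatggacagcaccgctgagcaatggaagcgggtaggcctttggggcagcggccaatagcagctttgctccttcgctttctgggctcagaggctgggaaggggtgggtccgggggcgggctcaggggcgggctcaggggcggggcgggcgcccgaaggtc
Ldha: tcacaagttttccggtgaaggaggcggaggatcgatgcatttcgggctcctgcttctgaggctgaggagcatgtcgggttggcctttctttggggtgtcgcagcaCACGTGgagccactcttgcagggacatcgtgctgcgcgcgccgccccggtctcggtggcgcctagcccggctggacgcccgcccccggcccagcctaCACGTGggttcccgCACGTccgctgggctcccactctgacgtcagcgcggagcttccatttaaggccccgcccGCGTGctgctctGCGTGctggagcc

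The Pdk1 window held 2 matches of GCGTG, starting 78 and 2 bases before the gene's start, and 0 of ACGTG. Hk2 and Pgk1 each held 2 matches of ACGTG and 0 of GCGTG. Ldha held the most, 5 of ACGTG and 2 of GCGTG, and its ACGTG matches included a pair of the palindrome CACGTG, each counted on both strands. All 10 members had a window in the table, 16 windows in all, of which 14 held a match of either string and 7 one of ACGTG. Short strings are common, and 43.8% of all 32851 windows held a match of either, 19.6% one of ACGTG. Windows of a member can overlap and share matches. Pdk1 and Ldha have a second window each, Pdk1 with no match and Ldha with 2. Matches therefore stood both in members with a lower signal and in level ones, and whether HIF-1 binds at any of them was not measured.

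The other glycolytic enzymes also lay within 1.5-fold. Of 25 further enzyme genes on the array 13 passed the floor, 12 of them lower and 1, Hk3, higher by some amount, and the median was -0.18. After centring on the median gene 10 were lower and 3 higher, and after loess or quantile normalization 11 were lower and 2 higher. Gpi1, which converts glucose-6-phosphate to fructose-6-phosphate, had 11.82 in Oasl1-/- and 12.15 in WT, a difference of -0.32. The aldolase gene Aldoa differed by -0.15, Tpi1, which interconverts the triose phosphates, by -0.28, and Pgam1, which moves the phosphate of phosphoglycerate, by -0.22. Gpi1 had 2 probe sets and Pgam1 had 3. Those used spanned only the short stretches chr8:5640037-5640513 for Gpi1 and chr3:11014399-11015163 for Pgam1. Whether these are copies of the genes was not examined, so both signals may include what copies contribute. Gapdh, often used as a loading control, was at -0.09 with 13.39 in Oasl1-/- and 13.48 in WT. It had 36 probe sets, many on copies elsewhere in the genome, whose differences ran from -0.16 to -0.09, and what the copies contribute was not separated. The pyruvate kinase gene Pkm2 (now Pkm), whose product makes pyruvate, differed by -0.09. The file's own glycolysis term, chosen after the data were seen and holding 7 of the 10 members, gave 24 genes past the floor, 22 of them lower by some amount beside 60.6% of all genes, a median of -0.14 and 0 past 1.5-fold. The file's glycolysis and gluconeogenesis pathway, chosen likewise and holding 4 of the members, gave 18 genes, all 18 lower by some amount. They ran from -0.32 to -0.07 with a median of -0.13, and 0 were past 1.5-fold. With the median gene at -0.09, some of them, such as Dlat at -0.07, would not be lower after centring. Centring was not run for the term or the pathway. The term and the pathway share many genes with each other and with the enzymes above, so they are not separate evidence.

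Transport of glucose and lactate across the membrane held the highest difference of the pathway. Slc2a6, a hexose transporter of macrophages induced by inflammatory stimuli, had 12.10 in Oasl1-/- and 11.26 in WT. At 0.84 (1.79-fold higher) it was the 190th highest of all genes. Slc2a1, the GLUT1 transporter that supplies most glucose to activated macrophages, was almost level, with 11.46 in Oasl1-/- and 11.38 in WT, and Slc2a3 (GLUT3) differed by -0.29. Among lactate carriers, Slc16a3, the exporter MCT4, differed by 0.09, while Slc16a1, the carrier MCT1, had 7.46 in Oasl1-/- and 8.03 in WT. Its difference of -0.56 was just short of 1.5-fold. Of the 8 genes past the floor in this list 1 was higher by 1.5-fold and 0 lower, beside 5.27% and 6.28% of all genes. The median was 0.05.

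**Figure D3:**
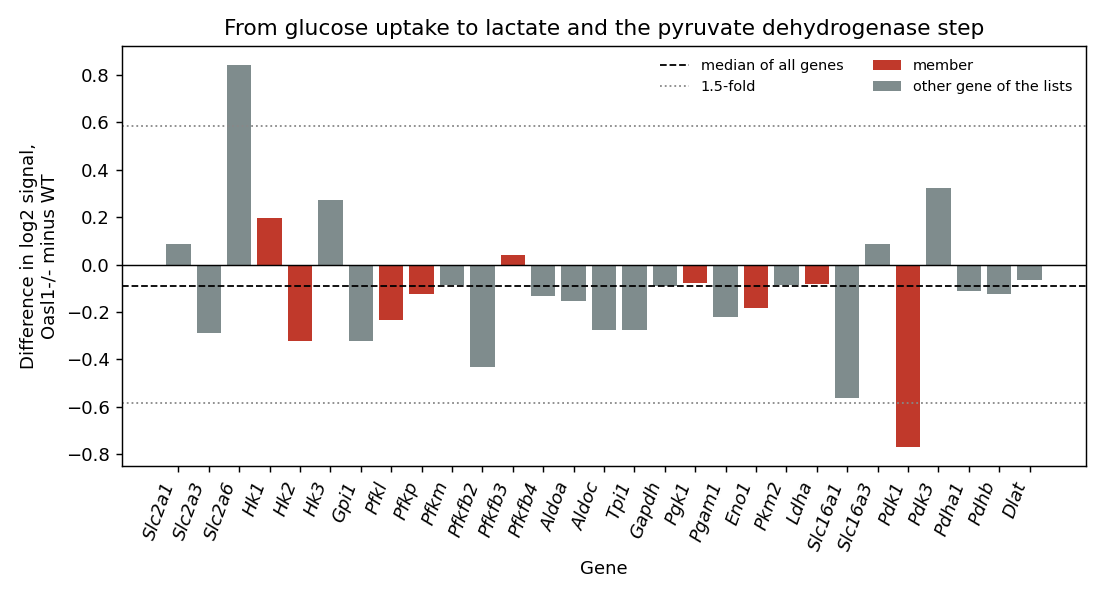
Difference in log2 signal, Oasl1-/- minus WT, for genes past the floor ordered from glucose uptake to lactate release and the pyruvate dehydrogenase step (bars, members in red, 1 array per genotype). Slc2a6 at 0.84 and Pdk1 at -0.77 are the bars beyond the dotted 1.5-fold lines, with Slc16a1 at -0.56 just inside.

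Around Hif1a, 2 of the 3 oxygen-sensing prolyl hydroxylase genes were lower by at least 1.5-fold while the HIF-1 partner was level. Egln3, a prolyl hydroxylase that is itself induced by HIF, had 7.61 in the Oasl1-/- array and 8.64 in the WT array. At -1.03 (2.04-fold lower) it was the 45th lowest of all genes. Egln1, the main oxygen-sensing hydroxylase and also HIF-induced, had 8.26 in Oasl1-/- and 8.86 in WT, a difference of -0.60 that was under 1.5-fold in all 4 rescalings. Epas1, which encodes HIF-2α, differed by -0.74, with a signal of 6.43 in Oasl1-/- that was below the floor and 7.16 in WT, so its size is uncertain. Arnt, the partner of HIF-1α, was level at 0.03, Vhl differed by -0.16, Egln2 by -0.12 and Hif1an, the asparaginyl hydroxylase that blocks HIF activity, by -0.02. Of 12 partners and regulators past the floor 3 were lower by 1.5-fold and 0 higher, beside 6.28% and 5.27% of all genes. Their median was -0.07. Those 3 became 1 after removal of a loess trend or with a pseudocount of 32, which left Egln3, and Egln3 was under 2-fold after any rescaling. On the higher side stood Cited2, which competes with HIF-1α for its coactivators, and Os9, both at 0.45.

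HIF-induced genes outside glycolysis were mixed. Ankrd37 had 7.15 in Oasl1-/- and 8.11 in WT, a difference of -0.96. The Oasl1-/- signal was below 7.34, the background limit of that array given above, so this size is uncertain. Ndrg1, a stress-response gene strongly induced by hypoxia, had 8.85 in Oasl1-/- and 9.59 in WT, a difference of -0.74. Both stayed past 1.5-fold in every setting run. Bnip3l and Bnip3, which mark mitochondria for removal, differed by -0.51 and -0.28, and Vegfa, the vascular growth factor, by -0.11. Bnip3l and Bnip3 each had 2 probe sets, and those used spanned only chr12:18223404-18224060 and chr14:45216340-45216903. Whether these are copies of the genes was not examined. P4ha1, a collagen prolyl hydroxylase subunit, was on the higher side at 0.49, with 11.21 in Oasl1-/- and 10.72 in WT. Of the 13 genes past the floor 10 were lower by some amount, beside 60.6% of all genes, and the median was -0.16. By 1.5-fold 2 were lower and 0 higher, beside 6.28% and 5.27% of all genes. Pdk1, Egln3, Ankrd37, Ndrg1 and Egln1, all HIF-induced, were past 1.5-fold on the lower side as deposited, Egln1 in none of the 4 rescalings. Ldha, Pgk1, Slc2a1, Vegfa and Pfkfb3, also HIF-induced, were within 0.11 of 0, and P4ha1 at 0.49 and Ero1l at 0.25 were higher. The genes in this last comparison were picked after their values were seen.

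**Figure D4:**
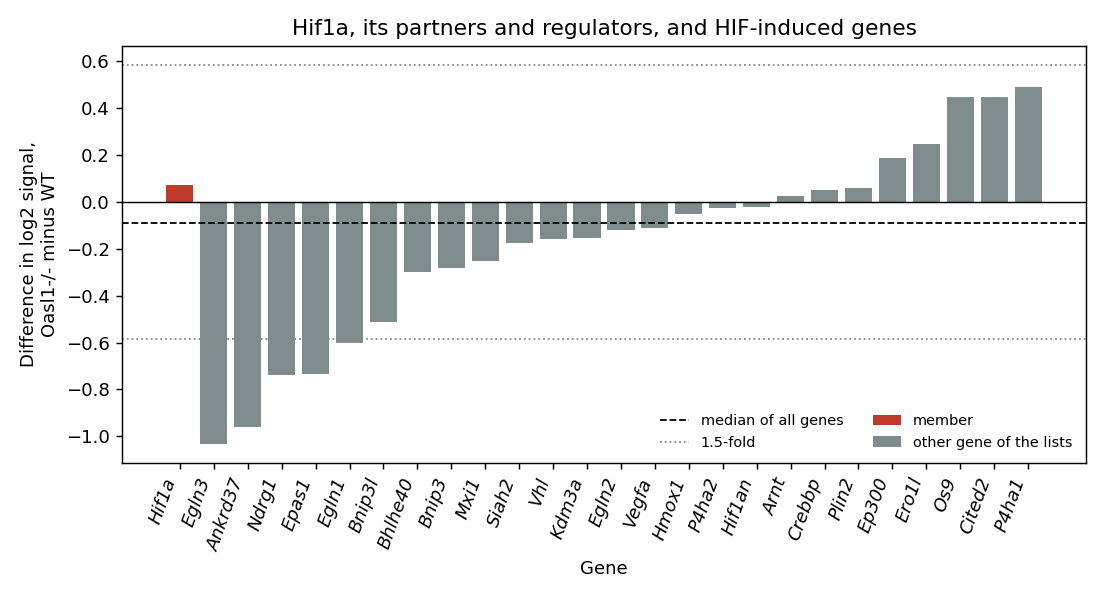
Difference in log2 signal, Oasl1-/- minus WT, for Hif1a (red, first bar) and for genes past the floor from the lists of HIF partners and regulators and of HIF-induced genes (grey, lowest to highest). Egln3, Ankrd37, Ndrg1, Epas1 and Egln1 lie below the dotted lower 1.5-fold line, Hif1a is at 0.07, and no gene reaches the upper line.

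Changes in total mRNA and changes in its loading with ribosomes both alter a polysomal signal, and with no total RNA the 2 could not be separated. In bulk RNA fewer cells of a kind and less RNA per cell cannot be told apart either.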

How the data were processed

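Polysomal RNA of poly(I:C)-treated macrophages was hybridised to Affymetrix Mouse Gene 1.0 ST arrays, 1 array for Oasl1-/- and 1 for WT, grouped by the genotype in the labels. For each of 35556 probe sets the authors deposited a log2 signal per array, an RMA value per the submitters' processing notes, which also name GCOS. The series design text names the R affy package 2.9.2 and Expression Console 1.1. Since RMA gives arrays a common distribution of probe intensities, differences are relative to other genes. The deposited signals did not share a distribution exactly, and quantile normalization of them moved the median gene from -0.089 to -0.014. The authors also deposited a log2 ratio, which equalled Oasl1-/- minus WT in all 35556 rows, and an unsigned fold, a linear ratio that matched the size of the log2 ratio, both within 1e-06.

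Of the probe sets 25465 carried 1 symbol, 2 several and 10089 none, and only those with 1 were used. A gene was represented by its brightest probe set and counted when its higher signal was at least 7. Genes named by rule were the 10 members, a fixed set of pathway genes, and in each pathway list the genes past 1.5-fold and those with the 2 largest absolute differences. Further genes of the lists, such as Akt1, Txnip, Cited2 and P4ha1, were named outside this rule. With 1 array per genotype a fixed fold took the place of a test, no p-value was computed, and the number of arrays limits the precision. Members and lists were chosen with earlier results of these data known. Alternatives were centring, loess (fraction 0.4), quantile normalization, a pseudocount of 32, the mean over probe sets, the second deposited table and other floors. The 2-fold count was run on simulated arrays with planted differences well past 2-fold and little noise, which checks the code only. The 1.5-fold count was not checked in this way. Python 3.11.15, pandas 2.3.3, numpy 2.4.6 and statsmodels 0.14.6 were used.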

Additional observations from a re-analysis of the deposited data

How the results depend on the processing

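Every result for the 10 members kept its value within 0.1 on the log2 scale, or kept its count past a fold, in all alternatives run, including 2 added after the data were seen, which used the parent loci of Eno1 and Pgk1 or left both genes out. Several of these outcomes were fixed in advance. Centring moves every gene by 0.0893, under that limit, and the second deposited table held the same values. The other floors keep all 10 members, and the choice of probe set can alter only Eno1 and Pgk1 among them. For the other members only loess, quantile normalization and the pseudocount could have moved a value further. Ldha and Pgk1, near 0, changed sign after centring but not after loess or quantile normalization. The neighbouring lists moved more. Among partners and regulators of HIF the count lower by 2-fold, 1 as deposited, was 0 after centring, loess, quantile normalization or the pseudocount of 32. Their count lower by 1.5-fold was 1 after loess or with the pseudocount, and their median was 0.037 after loess and 0.038 with a floor of 8. HIF-induced genes had a median of -0.26 and 4 genes lower by 1.5-fold with no floor, as dim genes entered. The pentose phosphate count lower by 1.5-fold was 0 after centring, loess, quantile normalization, the pseudocount or a floor of 8. Among regulators of glucose metabolism a floor of 8 left 0 genes lower by 1.5-fold and 0 by 2-fold, since it removes Myc. Over all genes the split at 1.5-fold, 413 higher and 492 lower as deposited, was 572 and 309 after centring, 558 and 268 after loess, 518 and 329 after quantile normalization and 349 and 323 with the pseudocount. Where no construction is named, the cause was not tested. No paired analysis was possible because each genotype has 1 array. Signals below the floor, such as those of Myc, Epas1 and Rpia in the Oasl1-/- array, are near background, so the size of these differences is not well bounded.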

Other observations

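The pentose phosphate pathway, which branches from glycolysis and supplies NADPH and ribose, was close to level. All 8 genes of the list passed the floor, 5 lower and 3 higher by some amount, with a median of -0.09. G6pdx, the entry enzyme, had 11.22 in the Oasl1-/- array and 11.24 in the WT array, and Pgd, the next NADPH-forming step, had 11.52 in Oasl1-/- and 11.44 in WT. Rpia, which makes ribose-5-phosphate, differed by -0.64, with 6.59 in Oasl1-/-, below the floor, and 7.23 in WT. H6pd, the enzyme of the endoplasmic reticulum lumen, differed by 0.26.

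Among 14 regulators of glucose metabolism past the floor, 1 was lower by 2-fold, beside 0.651% of all genes. None was higher by 1.5-fold, beside 5.27% of all genes, and the median was -0.06. Myc, a transcription factor that drives glycolytic genes in proliferating cells, had 5.88 in Oasl1-/- and 7.61 in WT. At -1.73 this was the 2nd lowest difference of all genes. The Oasl1-/- signal of Myc was below the floor, so this size and rank are not well bounded. Myc alone made the count lower by 2-fold, which was 0 with a floor of 8. Foxo3, a transcription factor restrained by AKT, differed by -0.56, and the kinase gene Akt1 by -0.48. Txnip, a brake on glucose uptake that responds to glucose itself, differed by -0.06, and Prkaa1, a catalytic subunit of AMP-activated kinase, by 0.02.

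The file's own response to hypoxia term, chosen after the data were seen, gave 31 genes past the floor, 14 lower and 17 higher, with a median of 0.09. Over all genes 6.28% were lower by 1.5-fold and 1.57% higher by 2-fold. In this term Egln3, Epas1 and Egln1 were lower by 1.5-fold. Higher by 2-fold were Nos2, the inducible nitric oxide synthase, at 2.06, and the vascular growth factor receptor genes Flt1 at 1.56 and Kdr at 1.41. Flt1 was below the floor in the WT array at 6.97.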
